A study of Mus musculus with 30 samples.

Results

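The Hoxb cluster genes are the neighbouring homeobox genes Hoxb1 to Hoxb9, and they were described here across all RNA libraries of a study of STAT3 in mouse blood progenitor lines. The 9 genes were chosen by name and matched by gene identifier, out of 50686 genes in the count files, of which 50376 had a symbol. All 9 were found. They lie on the + strand of chromosome 11 between positions 96271457 and 96368256 (GRCm38), a stretch of 96.8 kb that runs from Hoxb9 to Hoxb1.

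RNA was sequenced from 2 mouse haematopoietic progenitor lines, HPC7 (strain label 129SV) and HPCLSK (strain label C57BL/6N). Each line had been transduced with a retrovirus that was empty apart from dsRed, that carried STAT3, or that carried STAT3 with the amino acid change Y640F, which is known as an activating mutation of this transcription factor. There were 3 libraries for each of the 6 groups, 18 in all, with 9537258 to 38556669 counted reads each. The series text calls the 3 libraries technical replicates, so each p-value below measures only the spread between libraries, and a difference between transductions or clones cannot be told apart from an effect of the vector. No cells were treated, all were grown with stem cell factor, and only HPCLSK cells were kept on agarose-coated plates. As background, both lines were made immortal with the homeobox gene Lhx2, HPC7 from embryonic stem cells in culture and HPCLSK from bone marrow cells, so the controls carry it too. Lhx2 itself was counted at 8.92 CPM in HPC7 with empty vector and at 1291 CPM in HPCLSK with empty vector, where CPM is the read count normalised for sequencing depth and library composition. Per the file headers, the HPC7 libraries shared 1 sequencing lane and the HPCLSK libraries another, so line, strain, culture surface and lane cannot be told apart in any comparison between the lines.

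Hox proteins are transcription factors that bind DNA together with TALE cofactors of the Pbx and Meis families. Genes of a cluster are opened and kept active by trithorax proteins and kept silent by Polycomb proteins, largely in the order in which they lie. In blood, Hoxb4 is best known for expanding stem cells when it is forced on, Hoxb3 for its activity in primitive stem and progenitor cells, and Hoxb8 for blocking myeloid differentiation when overexpressed. The genes at the Hoxb7 to Hoxb9 end act in more posterior parts of the embryo than those at the Hoxb1 to Hoxb3 end.

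The vector check came first. Stat3 was counted at 225 ± 10.1 CPM (SD, n = 3) in HPC7 controls, 996 ± 17.1 in the STAT3 and 669 ± 20.9 in the Y640F group. In HPCLSK it was 354 ± 12.4, 599 ± 42.2 and 1900 ± 45.0 CPM in the same order. The files do not separate endogenous from vector Stat3. In HPCLSK the first control and the first Y640F library stood apart from the other libraries of their groups over all genes. Some Hoxb4 and Hoxb3 results that rest on them are also given without both, and values of other genes and of marker sums include them. Y640F was thus the lower of the STAT3 groups in HPC7 and the higher in HPCLSK, and in neither line can the mutation be told apart from the level of the transcript.

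Hoxb4 and Hoxb3 held nearly all reads of the cluster. Of 2855 reads counted on the 9 genes over 18 libraries, 2841 (99.5%) fell on Hoxb3 or Hoxb4, and Hoxb4 alone had 90.9%. Hoxb4 had 2595 reads and was counted in 18 libraries. Hoxb3 had 246 reads and was counted in 17.

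The other 7 members shared 14 reads. Hoxb8 had 7, all in HPC7 with empty vector, where the 3 libraries held 0, 5 and 2. Hoxb2 had 5, all in HPC7, and Hoxb1 and Hoxb7 had 1 each. Hoxb5, Hoxb6 and Hoxb9 had 0 in every library, which allows a level of up to 0.00694 CPM over the 18 libraries (3 counts, before composition scaling; counting error only). None of these 7 genes reached more than 0.214 CPM in a library. The 4 noncoding genes inside the cluster, among them the antisense RNA Hoxb3os and the microRNA gene Mir10a, were at 0 too, although a preparation for messenger RNA is not made to capture a mature microRNA.

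**Figure D1:**
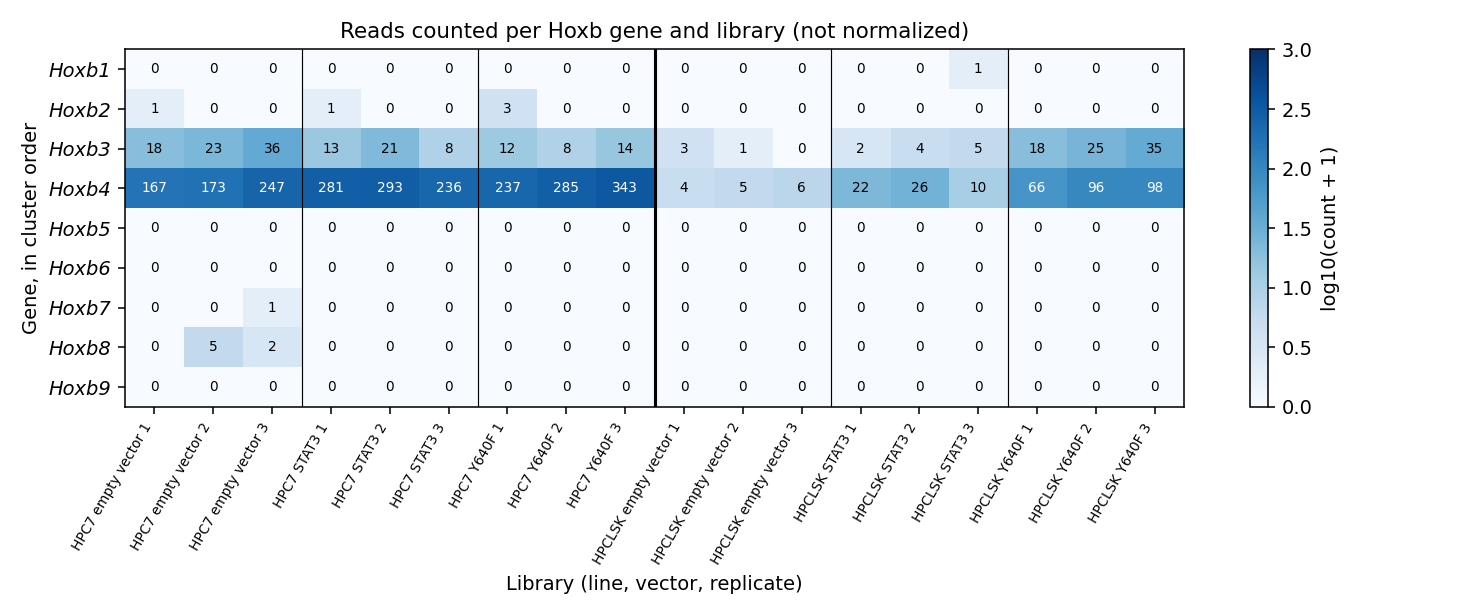
Reads counted on each Hoxb gene (rows, in cluster order) in each of the 18 libraries (columns; black lines part the groups and the thick line parts HPC7 from HPCLSK), shaded by log10(count + 1). Hoxb4 is counted in every library, from 4 to 343 reads, Hoxb3 in 17 of them, and the 7 other genes hold 14 reads in all.

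The sequence upstream of Hoxb4 is printed because this gene carried most of the signal and changed most clearly with the STAT3 vectors. RefSeq promoter windows were at hand for 3 of the 9 members (Hoxb1, Hoxb4 and Hoxb8). The Hoxb4 window shown is chr11:96318017-96318266 (GRCm38.p6, + strand), the 250 bases that end at the transcript start. Capitals mark the only match to TTC and GAA with 2 bases between them.

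Hoxb4 upstream: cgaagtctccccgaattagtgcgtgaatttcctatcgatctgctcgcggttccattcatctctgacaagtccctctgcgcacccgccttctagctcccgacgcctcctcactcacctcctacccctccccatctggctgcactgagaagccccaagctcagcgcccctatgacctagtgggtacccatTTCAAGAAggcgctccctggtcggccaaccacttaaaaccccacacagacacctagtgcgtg

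The usual STAT element, TTCNNNGAA, had 0 matches on either strand of this window, and it occurred in 7.02% of 32851 promoter windows of the same length. With 4 bases between TTC and GAA there were also 0 matches (5.85% of windows). The capitals, TTCNNGAA, start at position -62 from the transcript start, and 7.17% of windows hold this string. That spacing was searched after the sequence had been seen, and it is a string match only, not a measured site. CCAAT, the box read by NF-Y, and CACGTG, read by Usf1 and Usf2, had 0 matches in this window (33.8% and 6.02% of windows). STAT3 binding was assayed by chromatin immunoprecipitation in HPC7, and those samples were not analysed here.

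In HPCLSK, Hoxb4 rose with both STAT3 vectors, and more with Y640F. The gene (ENSMUSG00000038692.8, chr11:96318267-96321638) shares no exonic bases with another annotated gene on either strand. With empty vector its level in the 3 libraries was 0.297, 0.223 and 0.347 CPM (0.289 ± 0.0623, SD, n = 3). With STAT3 it was 1.79, 1.24 and 1.03 CPM (1.35 ± 0.392), and with Y640F 4.45, 6.27 and 4.79 CPM (5.17 ± 0.967). All 3 Y640F libraries were above all 3 STAT3 libraries, and these were above all 3 controls, so no groups overlapped. The read counts behind the controls were 4, 5 and 6.

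In a quasi-likelihood test across all genes (edgeR), a gene was called at a Benjamini-Hochberg adjusted p below 0.05 and a fold of at least 2. Hoxb4 rose with STAT3 over empty vector by a log2 fold change of 2.23 ± 0.35 (SE; edgeR adjusted p = 0.0019). It was the 1 called of 2 members tested, the other 7 having too few reads, and 4.60% of all genes were called in that comparison. The ratio of the summed counts, 58 against 15 reads, was 4.78 (95% exact counting interval 2.67 to 9.08). With Y640F over empty vector Hoxb4 rose by 4.16 ± 0.29 (edgeR adjusted p = 1.2e-06), and 260 against 15 reads gave a ratio of 18.2 (10.8 to 33.0). Both tested members were called higher in that comparison, and 16.2% of all genes were called. Y640F over STAT3 gave 1.93 ± 0.24 for Hoxb4 (edgeR adjusted p = 6.7e-05), again with both tested members higher, where 14.2% of all genes were called. In HPCLSK, Hoxb4 passed the low-count filter in 0 of 3 control libraries and in all 3 libraries of each STAT3 group, and Hoxb3 in the 3 Y640F libraries alone. Both were thus tested only through the groups where they were high, and nothing is read from these counts of called members against the share of all genes. The 3 comparisons also share their groups and are not independent of each other.

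Hoxb3 in HPCLSK was high in 1 group only, the Y640F cells. Hoxb3 (ENSMUSG00000048763.11, chr11:96323326-96347930) lies next to Hoxb4, and 52.9% of its exonic bases lie opposite the antisense gene Hoxb3os, which had no reads in these strand-aware counts. Its level with empty vector was 0.223, 0.0446 and 0 CPM (3, 1 and 0 reads), and with STAT3 0.163, 0.190 and 0.516 CPM. With Y640F it was 1.21, 1.63 and 1.71 CPM (1.52 ± 0.268, SD, n = 3). Each Y640F library was above every other HPCLSK library, while the STAT3 and control libraries overlapped.

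Hoxb3 rose with Y640F over empty vector by 4.21 ± 0.58 on the log2 scale (edgeR adjusted p = 0.00012) and over STAT3 by 2.53 ± 0.49 (edgeR adjusted p = 0.0014). Since it passed the low-count filter through the Y640F libraries alone, a tested Hoxb3 had to be higher there. The summed counts were 78 reads with Y640F against 4 with empty vector, a ratio of 20.5 with a wide counting interval of 7.69 to 77.1. Without the first control and the first Y640F library, which leaves 1 control read, the log2 fold change was 5.68 (edgeR adjusted p = 2.6e-05), and that of Hoxb4 was 4.26 (edgeR adjusted p = 1.0e-06). STAT3 over empty vector gave 1.68 ± 0.85 (edgeR adjusted p = 0.23) from 11 against 4 reads, a ratio of 3.40 (1.01 to 14.6). That difference was not detectable at this depth.

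Other measures moved with these HPCLSK groups. The summed level of 13 stem and progenitor markers was 5961 to 6238 CPM in the controls, 5241 to 5493 under STAT3 and 4070 to 4290 under Y640F. That sum is carried by a few abundant genes, such as Cd34, at 2343 CPM in the controls, and Lhx2, the immortalising gene. Its members did not move together: with Y640F over empty vector 2 were called higher and 3 lower of 13, beside 16.2% of all genes. The called genes included the stem cell antigen gene Ly6a, which rose from 3.86 to 49.7 CPM (log2 fold change 3.68, edgeR adjusted p = 4e-08). The receptor gene Kit fell from 743 to 259 CPM (-1.51, edgeR adjusted p = 5.1e-07). With STAT3, 0 of the 13 were called higher and 1 lower, beside 4.60% of all genes. The sum of 12 granulocyte and monocyte markers was 8332 to 12507, 12366 to 17153 and 6215 to 9091 CPM in the same order. Its members went both ways: with Y640F over empty vector 3 were called higher and 3 lower of 12, beside 16.2% of all genes. Over STAT3, Y640F had 3 higher and 5 lower, beside 14.2%. STAT3 over empty vector gave 4 higher and 0 lower, beside 4.60%. One of those that rose with Y640F was the monocyte receptor gene Csf1r, from 70.3 ± 14.3 CPM with empty vector to 783 ± 323 CPM. The sum of 10 erythroid and megakaryocyte markers was 1188 to 1692 CPM in the controls, 792 to 903 under STAT3 and 461 to 714 under Y640F. Most of that sum was Itga2b, at 1144, 616 and 510 CPM in the group means. Of 6 tested members, 0 were called with STAT3 over empty vector, beside 4.60% of all genes. With Y640F over empty vector 0 were called higher and 4 lower, beside 16.2%. The 10 lymphoid markers summed to at most 6.72 CPM, with Pax5, Cd3e and Cd8a at 0. The 8 stromal and endothelial markers summed to 145 to 349 CPM, with Col1a2, Col3a1 and Cdh5 at 0. The part of these cell states in the Hoxb result was not tested. In bulk RNA, fewer cells that express a gene and less RNA per cell cannot be told apart.

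In HPC7 the same vectors left Hoxb4 within a narrow range and lowered Hoxb3. Hoxb4 stood at 6.44, 7.39 and 7.19 CPM with empty vector (7.01 ± 0.501, SD, n = 3), at 8.56, 7.88 and 7.93 with STAT3 (8.12 ± 0.378) and at 7.76, 8.52 and 8.57 with Y640F (8.28 ± 0.456). Every library of both STAT3 groups was above every control, and the STAT3 and Y640F libraries overlapped. The difference was small: a log2 fold change of 0.21 ± 0.09 for STAT3 (edgeR adjusted p = 0.065) and 0.26 ± 0.09 for Y640F (edgeR adjusted p = 0.022), neither of which reached the fold needed for a call. Y640F over STAT3 gave 0.05 ± 0.09 (edgeR adjusted p = 0.66).

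Hoxb3 in HPC7 was 0.694, 0.983 and 1.05 CPM with empty vector (0.909 ± 0.188, SD, n = 3). It was 0.396, 0.564 and 0.269 CPM with STAT3 (0.410 ± 0.148) and 0.393, 0.239 and 0.350 CPM with Y640F (0.327 ± 0.0793). All controls were above all libraries of both STAT3 groups, which overlapped each other. Hoxb3 fell with STAT3 by 1.12 ± 0.30 on the log2 scale (edgeR adjusted p = 0.0068) and with Y640F by 1.46 ± 0.31 (edgeR adjusted p = 0.0012).

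It was the only member called of the 2 tested in both of these comparisons, in which 7.22% and 8.18% of all genes were called. The STAT3 call rested on single libraries: without the third control library the log2 fold change was -0.99, and without the third STAT3 library -0.91, both below the fold needed. For Y640F over STAT3, with -0.34 ± 0.35 (edgeR adjusted p = 0.45), Hoxb3 was not called, so 0 of 2 tested members were, beside 7.89% of all genes. At an unadjusted p below 0.05 the count was also 0, and DESeq2 called 0. Hoxb8, with 7 control reads against 0 in each STAT3 group, was too low for the test. With 3 reads put in place of 0, its level was 2.78-fold lower with STAT3 and 2.90-fold lower with Y640F. These values leave out the counting error of the 7 control reads and are not lower limits. All 7 reads came from 2 of 3 control libraries.

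HPC7 markers moved as well. The stem and progenitor sum was 3272 to 3443 CPM in the controls, 3098 to 3150 under STAT3 and 3377 to 3493 under Y640F. Of its 13 genes 4 were called lower with STAT3, beside 7.22% of all genes. They included Cd34 (609 to 41.2 CPM, log2 fold change -3.89, edgeR adjusted p = 2.1e-13) and Flt3 (2.16 to 0.358 CPM, -2.57, edgeR adjusted p = 3.1e-06). With Y640F, 2 of the 13 were called higher and 3 lower, beside 8.18% of all genes. The granulocyte and monocyte sum was 514 to 897 CPM in the controls, 378 to 404 under STAT3 and 223 to 247 under Y640F. The erythroid and megakaryocyte sum was 340 to 397, 640 to 668 and 377 to 393 CPM. Hoxb3 and the granulocyte and monocyte sum were lower in both STAT3 groups, and the erythroid and megakaryocyte sum was higher with STAT3 alone. Of 8 tested granulocyte and monocyte markers, 4 were called lower and 0 higher with each STAT3 vector, beside 7.22% and 8.18% of all genes. Of 8 tested erythroid and megakaryocyte markers, 0 were called lower. With STAT3 1 was called higher and with Y640F 3, beside the same shares of all genes. The part of these markers was not tested.

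**Figure D2:**
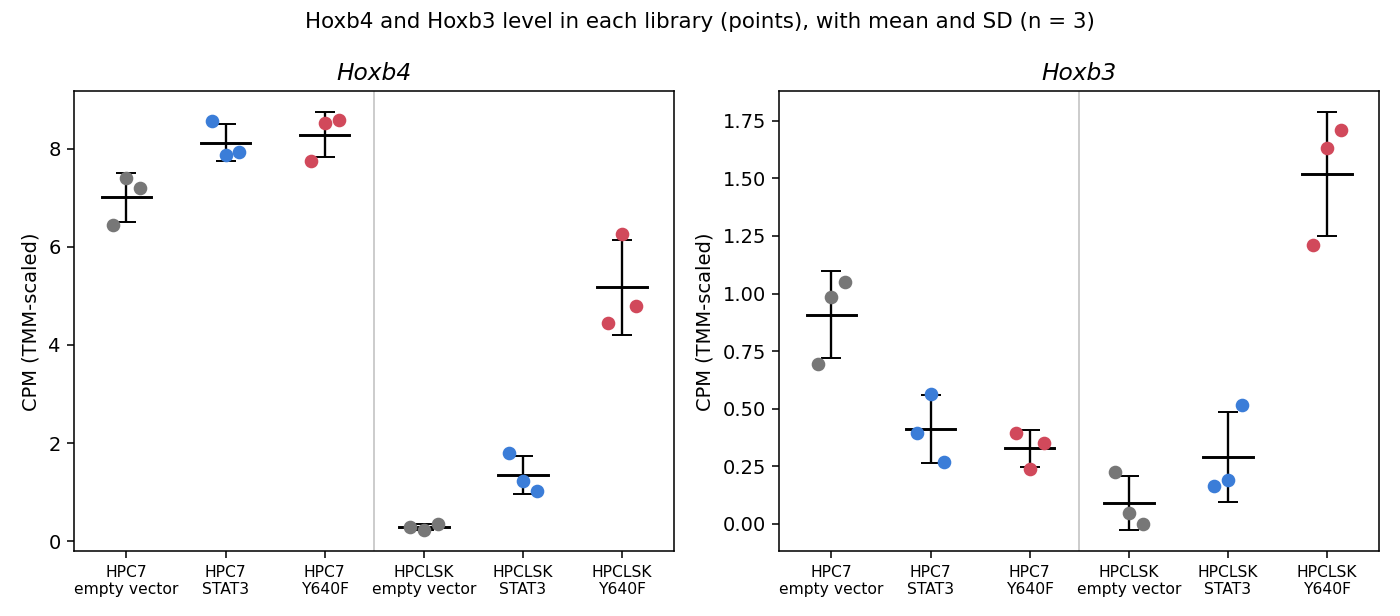
Level of Hoxb4 (left) and Hoxb3 (right) in CPM for each library (points), with the mean (horizontal line) and SD (bars) of the 3 libraries of each group, each panel on its own linear scale. Hoxb4 lies between 6.44 and 8.57 CPM in all HPC7 libraries and rises from 0.289 to 5.17 CPM on average across the HPCLSK groups; Hoxb3 is lowered in HPC7 and raised in HPCLSK with Y640F.

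The lines differed in their starting point. With empty vector, HPCLSK had less of both genes than HPC7, by a log2 difference of -4.61 ± 0.22 for Hoxb4 (edgeR adjusted p = 4.9e-13) and -3.51 ± 0.57 for Hoxb3 (edgeR adjusted p = 1.6e-05); without the first HPCLSK control and Y640F libraries these were -4.66 and -4.96. Both tested members were called, in a comparison where 36.4% of all genes were. With STAT3, Hoxb4 was still lower in HPCLSK, by -2.58 ± 0.17 (edgeR adjusted p = 4.2e-11), and Hoxb3 was not called (-0.68 ± 0.52, edgeR adjusted p = 0.23), so 1 of 2 was, beside 39.9% of all genes.

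With Y640F the order of the lines split by gene. Hoxb4 was -0.68 ± 0.13 in HPCLSK against HPC7 (edgeR adjusted p = 8.5e-05), below the fold needed for a call, and Hoxb3 was higher in HPCLSK by 2.21 ± 0.35 (edgeR adjusted p = 1.1e-05). Again 1 of 2 members was called, beside 40.0% of all genes. Ordered by mean level, Hoxb4 ran from HPC7 Y640F, STAT3 and empty vector down to HPCLSK Y640F, STAT3 and empty vector. Of neighbours in that order, the STAT3 and Y640F libraries of HPC7 overlapped and the others did not. For Hoxb3 the order was HPCLSK Y640F, HPC7 empty vector, HPC7 STAT3, HPC7 Y640F, HPCLSK STAT3 and HPCLSK empty vector. HPCLSK Y640F and HPC7 empty vector overlapped no neighbour, and from HPC7 STAT3 downward each neighbouring pair overlapped.

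The responses to the vectors differed between the lines when the difference itself was tested on all 18 libraries. For STAT3 over empty vector the log2 fold change was larger in HPCLSK than in HPC7 by 2.03 ± 0.34 for Hoxb4 (edgeR adjusted p = 0.00015) and by 2.83 ± 0.88 for Hoxb3 (edgeR adjusted p = 0.020). Both tested members were called, beside 8.25% of all genes. The Hoxb3 call was lost without the second HPCLSK control (2.48, edgeR adjusted p = 0.067), without the third (2.29, edgeR adjusted p = 0.055) or without the third HPCLSK STAT3 library (2.32, edgeR adjusted p = 0.091). It was 4.24 (edgeR adjusted p = 0.0042) without the first HPCLSK control and Y640F libraries.

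For Y640F the difference was 3.92 ± 0.28 for Hoxb4 (edgeR adjusted p = 2.6e-09) and 5.72 ± 0.66 for Hoxb3 (edgeR adjusted p = 9.6e-07). Without the first HPCLSK control and Y640F libraries the values were 4.02 and 7.26. Both tested members were called here too, beside 15.0% of all genes. The Hoxb3 responses had opposite signs: all Y640F libraries were below all controls in HPC7 and above all controls in HPCLSK. Both differences use the control libraries of each line and so share them.

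**Figure D3:**
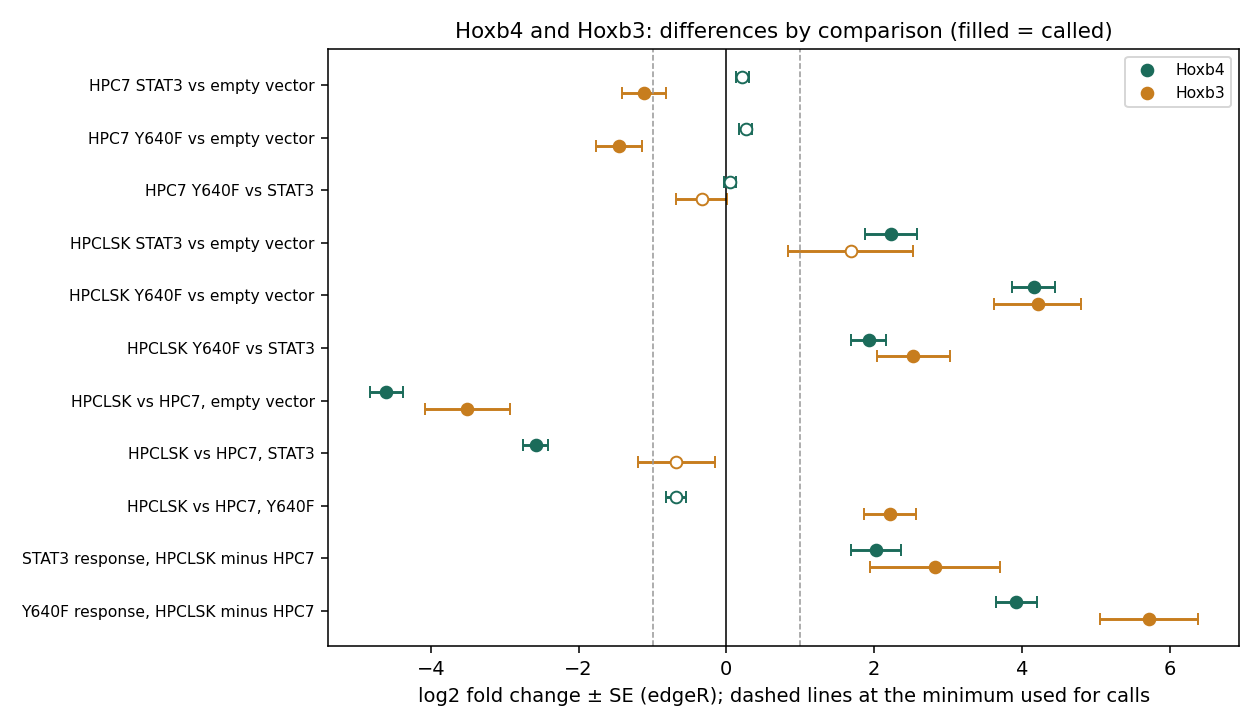
Log2 fold change with its standard error (edgeR) of Hoxb4 and Hoxb3 in each of the 11 comparisons, the last 2 being the differences between lines; filled points were called (adjusted p below 0.05 and a fold of at least 2, dashed lines). Hoxb4 is near 0 in the HPC7 comparisons and at 2.23 and 4.16 for the STAT3 vectors over empty vector in HPCLSK, where Hoxb3 is called for Y640F at 4.21 and falls in HPC7.

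Per kilobase of exon (RPKM, CPM divided by exonic length in kb), Hoxb4 was above Hoxb3 in the mean of every group. Hoxb4 stood at 2.73, 3.17 and 3.23 RPKM in HPC7 with empty vector, STAT3 and Y640F, and at 0.113, 0.527 and 2.01 RPKM in HPCLSK. Hoxb3 stood at 0.214, 0.0964 and 0.0770 RPKM, and at 0.0210, 0.0681 and 0.357 RPKM. For each 100 units of Hoxb4 RPKM there were 7.78 ± 1.17 of Hoxb3 in HPC7 controls, 3.06 ± 1.16 with STAT3 and 2.40 ± 0.683 with Y640F (SD, n = 3). In HPCLSK with Y640F the value was 17.9 ± 3.18, and each of its libraries was above every HPC7 library. In the other HPCLSK groups, with 19 and 70 cluster reads, it spread from 0 to 45.3 between libraries.

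Among 38 listed Hox genes of the Hoxa, Hoxb, Hoxc and Hoxd clusters, Hoxb4 had the highest RPKM in each HPC7 group. It made up 35.5% of the summed RPKM of these genes in the controls, 64.2% under STAT3 and 60.6% under Y640F. In HPCLSK it ranked 9 in the controls (0.289% of the sum), 5 under STAT3 (4.68%) and 3 under Y640F (11.7%). The gene that led in HPCLSK controls was Hoxa9, a driver of progenitor self-renewal, at 144 CPM and 66.2% of the summed RPKM.

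Of the 29 listed Hox genes of the other clusters, some fell in HPCLSK, where Hoxb4 rose. In HPCLSK, Hoxa9 fell with STAT3 from 144 to 14.8 CPM (log2 fold change -3.26 ± 0.19, edgeR adjusted p = 5.6e-06) and with Y640F to 20.0 CPM (-2.82 ± 0.18, edgeR adjusted p = 6.7e-07). Hoxa5 fell with STAT3 from 5.05 to 1.83 CPM (-1.40 ± 0.24, edgeR adjusted p = 0.0031). Of 9 tested genes, these 2 were called lower and 1 higher with STAT3, beside 4.60% of all genes. With Y640F, Hoxa9 was the 1 called lower and 1 other was called higher, beside 16.2% of all genes.

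In HPC7, 7 of the 29 could be tested and 4 were called lower with each STAT3 vector, with 1 called higher for Y640F. Beside them, 7.22% of all genes were called with STAT3 and 8.18% with Y640F. Hoxa5 fell from 2.66 to 0.173 CPM with STAT3 and to 0.150 CPM with Y640F. Hoxa6 fell from 1.09 to 0.0393 and 0.0276 CPM. Hoxc5 was at 0.0993 CPM in the controls, 0.0818 under STAT3 and 1.56 under Y640F. Hoxa9 was at 0 in all HPC7 libraries, and Hoxd8, at 2.45 CPM in HPC7 controls, was at 0 in all HPCLSK libraries. No difference between the Hoxb genes and these lists was tested.

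**Figure D4:**
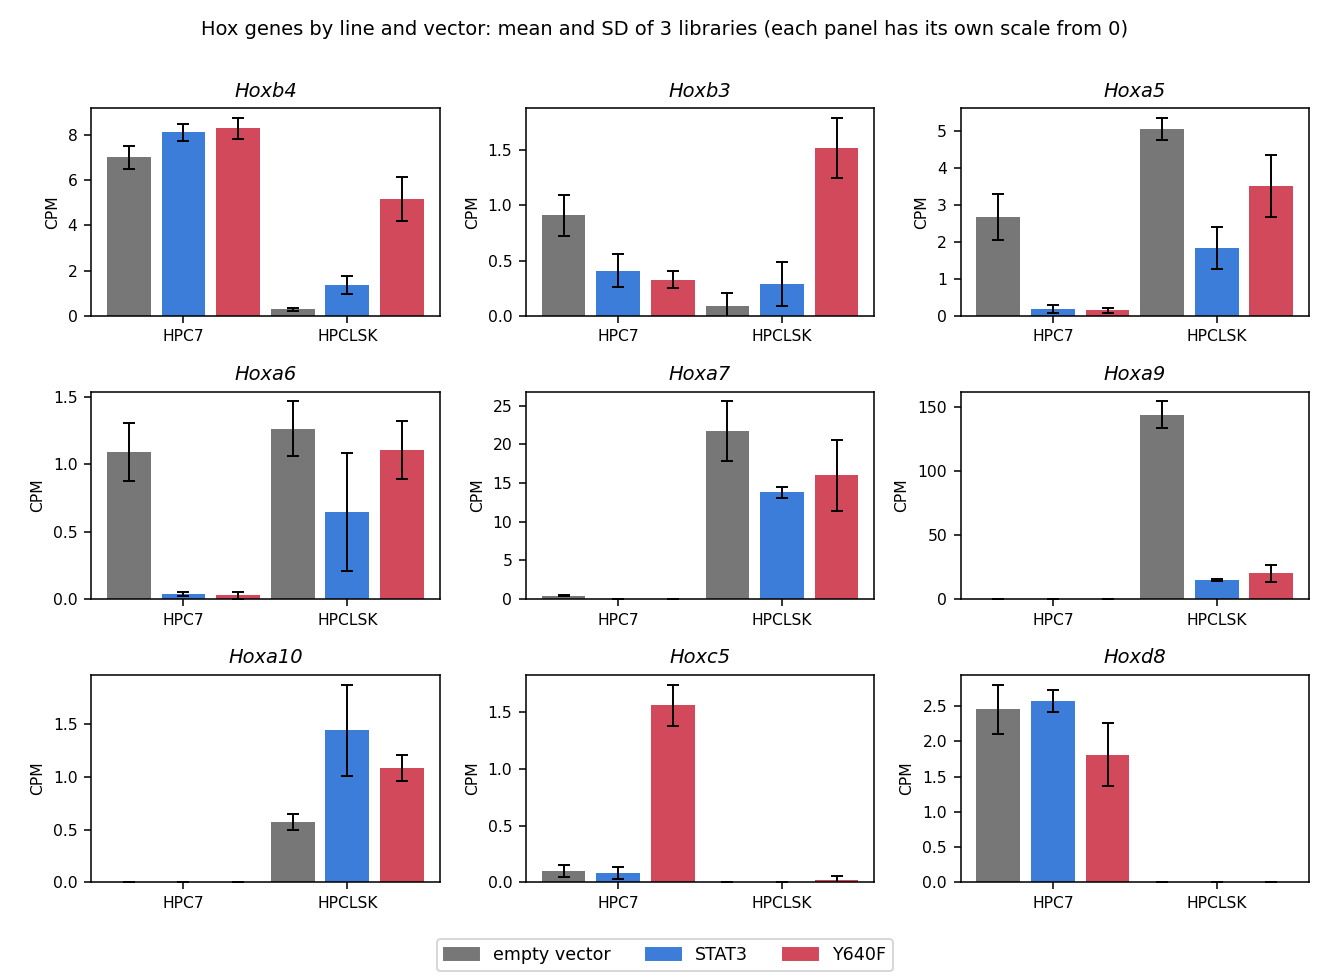
Mean CPM and SD of 3 libraries for Hoxb4, Hoxb3 and 7 Hox genes of other clusters by line and vector (grey, empty vector; blue, STAT3; red, Y640F), each panel on its own scale from 0. Hoxa9 falls from 144 to 14.8 and 20.0 CPM in HPCLSK, where Hoxb4 rises, and is at 0 in HPC7; Hoxa5 and Hoxa6 are lower with both STAT3 vectors in HPC7.

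Genes known to act with or on Hox clusters were followed in 4 lists. Over empty vector, 3 of 50 tested genes of these lists were called with STAT3 and 4 of 50 with Y640F in HPC7, beside 7.22% and 8.18% of all genes. In HPCLSK 1 of 52 and 4 of 52 were called, beside 4.60% and 16.2% of all genes, and no difference from all genes was tested. Of 9 TALE cofactors, 5 were tested in HPC7 and 6 in HPCLSK. Meis1, the partner best known with Hoxa9, lay between 68.0 and 147 CPM in every group mean. Meis3 was lower with STAT3 in HPC7 (1.39 to 0.367 CPM, log2 fold change -1.89, edgeR adjusted p = 5e-05) and higher with Y640F (3.53 CPM, 1.36, edgeR adjusted p = 2.5e-05). Pbx4 fell with Y640F in HPCLSK from 8.33 to 3.83 CPM (-1.10, edgeR adjusted p = 0.00029).

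All 16 trithorax and MLL complex genes were tested, and 0 were called in any within-line comparison with edgeR; at an unadjusted p below 0.05 there were 5 to 12 of the 16, and the largest log2 fold change was 0.90 in size. Of 18 Polycomb genes, Phc1, a subunit of the silencing complex that compacts chromatin, rose in HPCLSK with STAT3 from 2.22 to 6.19 CPM (1.54 ± 0.30, edgeR adjusted p = 0.0069) and with Y640F to 7.12 CPM (1.76 ± 0.30, edgeR adjusted p = 0.00046). In HPC7 controls Phc1 was at 68.4 CPM. Phf19, which brings the other Polycomb complex to chromatin, rose with Y640F in HPC7 from 21.9 to 72.5 CPM (1.75 ± 0.05, edgeR adjusted p = 3.6e-11). The other Polycomb genes were not called over empty vector in either line.

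Of 16 genes listed as upstream regulators of Hoxb genes, 12 were tested in HPCLSK. Egr2, which acts on Hoxb2 in the hindbrain, was there at 1.71 ± 1.67 CPM (SD, n = 3) with empty vector and 4.27 ± 1.67 CPM with Y640F. The log2 fold change was 1.43 ± 0.53 (SE, edgeR adjusted p = 0.039). This result was not repeated without the first control and the first Y640F library. With STAT3, 0 of the 12 were called by edgeR; 3 had an unadjusted p below 0.05. In HPC7, 11 were tested, and the retinoid receptor gene Rxra fell with STAT3 from 17.8 to 4.06 CPM (-2.12 ± 0.10, edgeR adjusted p = 2.5e-09) and rose with Y640F to 38.6 CPM (1.14 ± 0.08, edgeR adjusted p = 5.6e-08). Rarg fell with STAT3 from 3.99 to 1.34 CPM and Egr2 with Y640F from 2.57 to 1.10 CPM.

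Genes around the cluster were not called. Of 25 other annotated genes within 300 kb of the cluster, 4 had enough reads to test: Snf8, Ube2z, Atp5g1 and Gm11539. Of these, 0 were called by edgeR in any of the 11 comparisons, beside 4.60% to 40.0% of all genes. Per comparison, 0 to 3 had an unadjusted p below 0.05. In HPCLSK with Y640F over empty vector their log2 fold changes ran from -0.57 to 0.36, where Hoxb4 was at 4.16. Ube2z, an E2 enzyme for ubiquitin, had 0.35 ± 0.05 there (edgeR adjusted p = 0.00018). Between the lines with empty vector the 4 ran from -0.90 to -0.25, where Hoxb4 was at -4.61. Over all tested genes of chromosome 11 the median lay between -0.04 and 0.09 in the 11 comparisons.

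The genes whose pattern was most like that of Hoxb4 were named by Pearson r of log2(CPM + 0.5). Over 18 libraries and 10710 genes these were Ubl3 (r = 0.98), Id2 (0.98), Pstpip2 (0.98), Otud3 (0.97) and Creld1 (0.97). Id2, an inhibitor of basic helix-loop-helix factors, was at 66.6, 92.5 and 113 CPM in HPC7 and at 2.65, 10.7 and 37.0 CPM in HPCLSK with empty vector, STAT3 and Y640F. The libraries fall into the 2 lines, and these r values rest in large part on the gap between them.

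Within HPCLSK (9 libraries, 10586 genes) the closest were Hpse, Castor2 and Atg101, all with r = 0.99. Hpse, which encodes heparanase, was at 5.24, 12.8 and 37.0 CPM. Within HPC7 (9 libraries) they were Dand5 (0.97), Pip5k1a (0.96) and Il18bp (0.95). Hoxb3 had r = 0.91 with Hoxb4 in HPCLSK and r = -0.71 in HPC7. These are descriptions of libraries that share group, lane and line, and they say nothing of shared control.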

How the data were processed

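RNA was measured in 18 libraries (2 lines, 3 vectors, 3 libraries a group). Reads had been aligned with STAR and trimmed with Trimmomatic, per the submitters' processing notes (versions not given in the sources used here). The deposited values are raw counts per gene, made by the authors with featureCounts 1.5.1 (strand setting 2, exons of GENCODE M13, GRCm38), per the file headers. The labels name TruSeq Stranded and the series text Lexogen SENSE as the kit. Totals were 23127740 to 38556669 counts a library in HPC7 and 9537258 to 22154763 in HPCLSK, so low levels are less precise in HPCLSK. The 12 chromatin samples were not analysed here.

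Genes with about 10 reads at the median library total in at least 3 libraries were kept (filterByExpr). Counts were scaled by TMM and tested with edgeR 4.0.16 (R 4.3.3, quasi-likelihood), on the 9 libraries of a line (6 residual degrees of freedom) or on all 18 (12) for contrasts between lines. Calls needed a Benjamini-Hochberg adjusted p below 0.05 over all genes tested and a log2 fold change of at least 1 in size. Printed CPM use the TMM factors of all 18 libraries. Tested on simulated data, the fit called the 4-fold changes it was fed. The changed genes were drawn from levels above the HPCLSK means of Hoxb4 and Hoxb3. Recovery at the read counts of these 2 genes was thus not tested. Replicate numbers did not pair libraries (correlations of deviations from -0.13 to 0.07). Libraries of a group differed by more than sampling noise, so none was counted as a copy. The HPC7 controls spread more than the other HPC7 groups. Between pairs of their libraries the SD of log2 differences over genes was 0.36 to 0.43, against 0.29 to 0.33. HPCLSK empty vector 1 and Y640F 1 stood apart from the other libraries of their groups. The numbers of called members and genes and the Hoxb4 and Hoxb3 fold changes that rest on them were repeated without both. Results for other single genes were not. Intervals cover counting error only.

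The members, lists and tests were chosen with earlier results of these data known. All members were named, as were, from each list, up to 2 called genes per comparison with the largest change (and 1 CPM or more in 1 of the groups), and the genes most like Hoxb4 with a mean of at least 1 CPM; other genes were named after their values were seen. A few genes of the lists that this rule would name are not reported here. Alternatives were DESeq2 1.42.0, RLE scaling, no filter, a filter of at least 5 CPM in 3 libraries, 1 fit of 18 libraries, the replicate number as a block and leaving out each library.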

Additional observations from a re-analysis of the deposited data

Results flagged for a closer look

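The response to the vectors differed between the lines for both tested members, by the test of the difference itself across all genes. For Hoxb4 the log2 fold change over empty vector was larger in HPCLSK than in HPC7 by 2.03 with STAT3 and by 3.92 with Y640F. For Hoxb3 it was larger by 2.83 with STAT3 and by 5.72 with Y640F. The Hoxb3 difference with STAT3 rested on single libraries: its edgeR adjusted p was 0.067, 0.055 and 0.091 without the second HPCLSK control, the third HPCLSK control or the third HPCLSK STAT3 library, and the difference was 4.24 without the first HPCLSK control and Y640F libraries. The direction of the Hoxb3 change was down in HPC7 with both vectors and up in HPCLSK with Y640F. Line, strain, culture surface, sequencing lane and the level of Stat3 cannot be told apart in these differences.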

How the results depend on the processing

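Of 570 alternative values, 540 kept their direction and their side of the threshold (counts: within 1.5 times), and none reversed. Member log2 fold changes did so in 273 of 278, and ran from 3.97 to 4.32 for Hoxb4 and from 3.68 to 5.68 for Hoxb3 in HPCLSK with Y640F over empty vector. With the filter of at least 5 CPM in 3 libraries fewer genes were tested. Then 340, 416 and 444 genes were called in HPC7 (STAT3 and Y640F over empty vector, Y640F over STAT3), 343, 1201 and 982 in HPCLSK, and 3089, 3528 and 3560 between the lines (empty vector, STAT3, Y640F). Under it Hoxb3 was not tested, nor Hoxb4 in HPCLSK alone: 0 members were called in HPC7 with STAT3 or Y640F over empty vector, 0 in each HPCLSK comparison, 1 between the lines with empty vector, 0 with Y640F, and 1 in each difference between the lines. With no filter 2 members were called for STAT3 and 2 for Y640F over empty vector in HPC7, Hoxb8 being added from 7 reads against 0. Leaving out each library gave 0 to 1 members for STAT3 over empty vector in HPC7 and 1 to 2 for the STAT3 response between lines. With the replicate block, 2 members were called for Y640F over empty vector in HPCLSK, and it changed no call of a member. Leaving out HPCLSK empty vector 1 and Y640F 1 together, chosen after seeing the data, changed no call of a member. Depth limits Hoxb3 in HPCLSK controls (4 reads) and the 7 members with 14 reads in all.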
